A study of Rattus norvegicus with 2 samples.

Results

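The miR-181 family was examined in the small RNA of rat hippocampus after status epilepticus (SE), a seizure that does not stop by itself. Every miRNA of the deposited count table whose name begins with rno-miR-181 and a letter from a to d was taken as a member, which gave 8 of the 390 miRNAs listed. These were the 5p arms of miR-181a, miR-181b, miR-181c and miR-181d and the 3p arms miR-181a-1-3p, miR-181a-2-3p, miR-181b-1-3p and miR-181c-3p. The experimental group consisted of Wistar rats aged 5 months in which SE was induced by stimulating the right amygdala for 20 min, and the control group of rats of the same strain and age that were not stimulated (sham stimulation in the labels). By the study's account, stimulation was resumed in rats that had not met its criteria of SE, for at most 40 min in all. All rats were male and carried an implanted electrode. Tissue was collected 24 hours after SE, following saline perfusion, from the left hippocampus, on the side opposite to the electrode. There were 6 rats per group, and whether all 6 entered the RNA pool of their group is not stated. Owing to the pooling there was 1 library per group and no difference between the libraries had a replicate check.

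A miRNA is cut from a hairpin precursor as a duplex of its 5p and 3p arms. One arm, the guide, is usually kept in an Argonaute protein and represses mRNAs that pair with its seed, bases 2 to 8, whereas the other arm, the passenger, is mostly degraded. In the miR-181 family the 5p arm is the guide. The family is known for tuning T cell receptor signalling in lymphocytes, and in brain for repressing mRNAs of BCL2 family proteins, which control apoptosis, of the endoplasmic reticulum chaperone GRP78 and of an AMPA receptor subunit in neurons.

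The mature sequences of all 8 members (RefSeq, GRCr8 build) show which arms share a seed, given in capitals, and how little separates the paralogues:
rno-miR-181a-5p: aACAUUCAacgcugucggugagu
rno-miR-181b-5p: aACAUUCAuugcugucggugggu
rno-miR-181c-5p: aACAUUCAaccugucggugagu
rno-miR-181d-5p: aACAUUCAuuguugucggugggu
rno-miR-181a-1-3p: aCCAUCGAccguugauuguacc
rno-miR-181c-3p: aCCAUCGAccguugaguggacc
rno-miR-181a-2-3p: aCCACCAAccguugacugu
rno-miR-181b-1-3p: cUCACUGAacaaugaaugcaa

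The 4 guide arms had the same seed, and no other of the 693 mature miRNAs of the RefSeq table had it. Counting positions from 1 at the 5′ end, miR-181d-5p differed from miR-181b-5p by a single substitution, C12U, and miR-181b-5p differed from miR-181a-5p by A9U, C10U and A21G. MiR-181c-5p was 1 base shorter than miR-181a-5p and lay at an edit distance of 1 from it. Among the passenger arms, miR-181a-1-3p and miR-181c-3p shared a seed and differed by U16G and U19G, while miR-181a-2-3p and miR-181b-1-3p each had a seed of their own. Reads of such close relatives could have been divided between members by the authors' counting, most of all between miR-181b-5p and miR-181d-5p and between miR-181a-5p and miR-181c-5p.

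The family is encoded in 3 clusters of 2 genes. In the GRCr8 annotation Mir181a-1 and Mir181b1 lie 62 bases apart on chromosome 13 inside a long non-coding RNA gene. Mir181a2 and Mir181b2 lie 987 bases apart on chromosome 3. They are inside the span of Nr6a1, an orphan nuclear receptor gene, and also of a long non-coding RNA gene. Mir181c and Mir181d lie 78 bases apart on chromosome 19. The other miRNA gene within 10 kb, Mir3570, overlaps Mir181a-1, and its products were not analysed here. Of the pairs that could be read in 1 hairpin, those of Mir181a2 and Mir181c are shown because both arms were counted, with the arms in capitals:
Mir181a2: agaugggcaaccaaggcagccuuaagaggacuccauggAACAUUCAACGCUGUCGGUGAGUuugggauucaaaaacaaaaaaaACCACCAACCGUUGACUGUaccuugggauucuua
Mir181c: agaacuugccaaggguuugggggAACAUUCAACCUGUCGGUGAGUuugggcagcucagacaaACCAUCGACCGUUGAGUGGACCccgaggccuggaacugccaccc

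MiR-181a-5p is the same molecule whether it comes from chromosome 13 or from chromosome 3, and the hairpin of Mir181b2 likewise holds the whole of miR-181b-5p. The passenger arms counted here are each assigned to a single hairpin, and those of miR-181a tell its 2 hairpins apart where the guide does not. The 3p arms of Mir181b2 and Mir181d were not analysed here.

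The counts of the table summed to 5678090 after SE and 6703056 without it. Levels are given as CPM, counts scaled to 1000000 clean reads of a library, and a single count was worth 0.138 CPM after SE and 0.114 CPM in the control group. Intervals are 95% exact intervals and, like the p-values of Fisher's exact test, cover counting error only. They compare these libraries and not the conditions. The neuronal miRNAs listed, 4 of 5 of which were analysed, were abundant in both libraries, at 37574 CPM after SE and 44536 CPM without it. Most of this sum was miR-128-3p, at 29610 and 40550.5 CPM, the only one of the 4 with a lower level after SE. In a pooled tissue a change in the number of cells that carry a miRNA and a change in its amount per cell cannot be told apart.

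The guide arms of miR-181 were more abundant after SE, and the sum of their passenger arms was lower. All 8 members together had 29732 counts after SE and 19763 in controls, or 4106 and 2262 CPM. This sum was 1.82-fold higher after SE (interval 1.78 to 1.85), a log2 ratio of 0.86. The 5p arms made up nearly all of it, with 4079 CPM after SE against 2220 CPM in controls and a log2 ratio of 0.88 (interval 0.85 to 0.90). The 3p arms together stood at 27.1 CPM after SE and 41.9 CPM in controls, a log2 ratio of -0.63 (interval -0.89 to -0.38). They were 0.659% of all counts of the family after SE (interval 0.570 to 0.758) and 1.85% in controls (interval 1.67 to 2.05).

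**Figure D1:**
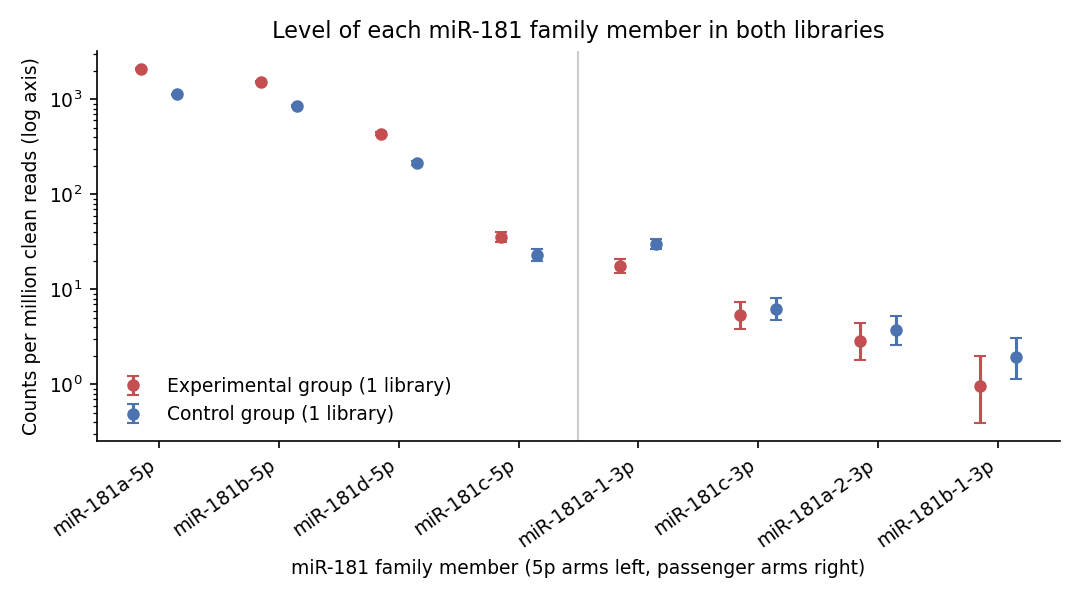
Level of each miR-181 family member in CPM (log axis) in the experimental (red) and control (blue) library, with exact Poisson intervals of the count as bars. The 4 guide arms lie higher in the experimental library and the 4 passenger arms lie lower there, and among the passenger arms only the bars of miR-181a-1-3p do not overlap.

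Among the guide arms, miR-181a-5p was the most abundant. It had 15063 counts after SE and 9845 in controls, 2080 and 1127 CPM, and ranked 20th and 25th of the 390 miRNAs. Its level was 1.85-fold higher after SE (interval 1.80 to 1.89), a log2 ratio of 0.88. MiR-181b-5p, made beside it from both shared clusters, had 11068 and 7474 counts, 1528 and 855 CPM, and was 1.79-fold higher (interval 1.73 to 1.84). For both the adjusted p of Fisher's exact test was below the smallest number that the software holds.

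The guides of the chromosome 19 cluster were scarcer. The member rno-miR-181d-5p had 3144 counts after SE and 1875 in controls, 434 and 215 CPM, and was 2.02-fold higher after SE (interval 1.91 to 2.14; Fisher's exact test, adjusted p = 1.20e-132). This was the largest rise within the family, a log2 ratio of 1.02, and 27 of the 285 miRNAs with at least 30 counts in either library had a higher one. MiR-181c-5p, its neighbour, had 261 and 203 counts, 36.0 and 23.2 CPM, and was 1.55-fold higher (interval 1.29 to 1.87; Fisher's exact test, adjusted p = 9.87e-06). The 4 guides were thus ordered a, b, d and c in both libraries, and no neighbours in this order had overlapping intervals of their levels.

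Of the 7 members with at least 30 counts, 4 passed Fisher's exact test as higher (adjusted p under 0.05 over the whole table), namely the 4 guide arms, against 38.6% of the 285 miRNAs. As lower, 1 of the 7 passed, the passenger miR-181a-1-3p, against 21.4% of the 285. The median log2 ratio of the 4 was 0.86, and that of the 285 was 0.10. The background depended on the scaling. Over the 5 scalings, the share of the 285 that passed ranged from 22.1% to 38.6% as higher and from 21.4% to 40.4% as lower. The miRNAs that passed numbered 171 with the clean reads, of which 64.3% were higher. They numbered 169 with the sum of the table (61.5% higher), 169 with the size factors of DESeq2 (53.8% higher), 173 with TMM of edgeR (46.8% higher) and 178 with unscaled counts (35.4% higher). The 4 guides were higher and past the test, and miR-181a-1-3p lower and past it, under each of these 5 scalings. The scalings other than the clean reads lower every ratio, so the sign of miR-181a-1-3p could not change under them. The log2 ratios of the guides ranged from 0.61 to 0.88 for miR-181a-5p, from 0.57 to 0.84 for miR-181b-5p, from 0.75 to 1.02 for miR-181d-5p and from 0.36 to 0.63 for miR-181c-5p.

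A log2 ratio beyond 1 was reached by 1 of the 7 members with at least 30 counts, miR-181d-5p, against 10.2% of the 285 miRNAs as higher. The interval of miR-181d-5p on the log2 scale, 0.93 to 1.10, held 1, and under the 4 other scalings its ratio lay at 0.99 or below, so that 0 members then passed. As lower, 0 of the 7 reached -1, against 2.11%. None of the 7 reached 2, the threshold of the study, in either direction, and 3.16% of the 285 did as higher and 1.05% as lower.

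**Figure D2:**
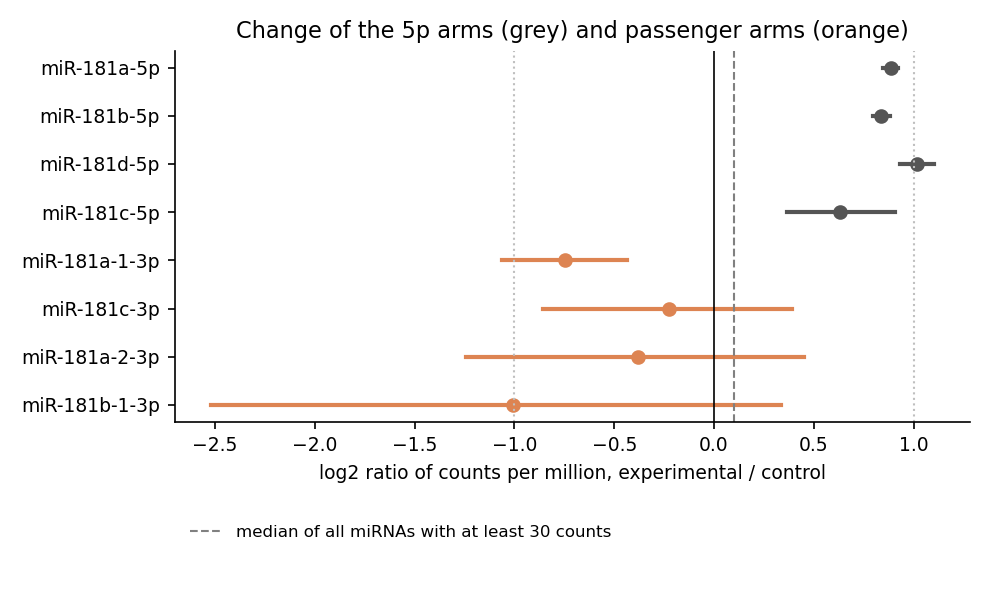
Log2 ratio (experimental over control) of each member with its 95% exact interval, 5p arms in grey and passenger arms in orange, with dotted lines at -1 and 1 and a dashed line at the median of the 285 miRNAs, 0.10. The 4 guide arms lie between 0.63 and 1.02 and the 4 passenger arms between -1.01 and -0.23.

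The passenger arms had few counts. MiR-181a-1-3p, the passenger of the chromosome 13 hairpin, was the best measured, with 129 counts after SE and 261 in controls, 17.8 and 29.9 CPM. It fell by 0.75 on the log2 scale (interval -1.06 to -0.44; Fisher's exact test, adjusted p = 3.55e-06), and 10 of the 285 miRNAs had a lower ratio. Under the 5 scalings its log2 ratio ranged from -1.02 to -0.75.

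The other passenger arms did not pass the test. MiR-181c-3p had 39 and 55 counts, 5.39 and 6.30 CPM, with a log2 ratio of -0.23 (interval -0.86 to 0.39). MiR-181a-2-3p, from chromosome 3, had 21 and 33 counts, 2.90 and 3.78 CPM, with a log2 ratio of -0.38 (interval -1.24 to 0.45). MiR-181b-1-3p had 7 and 17 counts, 0.967 and 1.95 CPM, with a log2 ratio of -1.01 (interval -2.52 to 0.33), and did not reach 30 counts. A change was not detectable at this depth for these 3. All 4 passenger arms had a negative ratio with the clean reads. The other scalings lower every ratio, so this sign could not change under them.

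The paralogues of the guide had similar proportions in both libraries. MiR-181a-5p made up 51.0% of the family's 5p counts after SE (interval 50.4 to 51.6) and 50.8% in controls (interval 50.0 to 51.5). The share of miR-181b-5p was 37.5% (interval 36.9 to 38.0) and 38.5% (interval 37.8 to 39.2). That of miR-181d-5p was 10.6% (interval 10.3 to 11.0) and 9.67% (interval 9.25 to 10.1), and that of miR-181c-5p was 0.884% (interval 0.780 to 0.997) and 1.05% (interval 0.908 to 1.20). The intervals of the libraries were apart for miR-181d-5p only.

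A difference between the log2 ratios of 2 members does not depend on the scaling of the libraries. MiR-181a-5p and miR-181b-5p differed by 0.047 (interval -0.0092 to 0.10), so that no difference in their rise was detectable and one beyond 0.10 lies outside the interval. MiR-181d-5p rose more than its cluster neighbour miR-181c-5p, by 0.38 (interval 0.098 to 0.67). It also rose more than miR-181b-5p, which differs from it by 1 base, by 0.18 (interval 0.086 to 0.27), and more than miR-181a-5p, by 0.13 (interval 0.041 to 0.22). MiR-181c-5p did not differ detectably from miR-181a-5p (0.25 lower, interval of the difference -0.023 to 0.52) or from miR-181b-5p (0.20 lower, interval -0.071 to 0.48). Summed, miR-181c-5p and miR-181d-5p had a log2 ratio of 0.98 and miR-181a-5p and miR-181b-5p one of 0.86, a difference of 0.12 (interval 0.035 to 0.20). These intervals are not adjusted for the number of differences computed.

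The ratio of miR-181d-5p to miR-181c-5p, whose hairpins lie next to each other, was 12.0 after SE and 9.24 in controls. The ratio of miR-181a-5p to miR-181b-5p was 1.36 and 1.32. Levels of different miRNAs within a library are not corrected for how readily each sequence takes the adaptors.

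The 5p and 3p arms of the family moved apart. Of the counts on miR-181a-5p and miR-181a-1-3p, the passenger made up 0.849% after SE (interval 0.709 to 1.01) and 2.58% in controls (interval 2.28 to 2.91). The 5p arm thus gained on the 3p arm by 1.63 on the log2 scale (interval 1.32 to 1.95; Fisher's exact test on the counts of both arms, adjusted p = 1.07e-25). Against miR-181a-2-3p, the passenger from chromosome 3, the same guide gained 1.27 (interval 0.43 to 2.13; Fisher's exact test, adjusted p = 0.00770), with passenger shares of 0.139% and 0.334%.

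MiR-181b-5p gained 1.85 on miR-181b-1-3p (interval 0.50 to 3.36; Fisher's exact test, adjusted p = 0.0106), whose share was 0.0632% after SE and 0.227% in controls. MiR-181c-5p gained 0.86 on miR-181c-3p (interval 0.18 to 1.55; Fisher's exact test, adjusted p = 0.0267). The passenger share of miR-181c was the highest of the family in both libraries, at 13.0% after SE (interval 9.41 to 17.3) and 21.3% in controls (interval 16.5 to 26.8). All 4 pairs moved the same way, and 2 of them share miR-181a-5p. MiR-181a-5p and miR-181b-5p each come from 2 hairpins and the passengers from 1. Their shares and gains are therefore not those of a single hairpin and are not like for like with miR-181c. The gain on miR-181b-1-3p rests on 7 and 17 counts. With the passengers of both miR-181a hairpins summed, 150 and 294 counts, the guide gained 1.58 (interval 1.29 to 1.88).

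**Figure D3:**
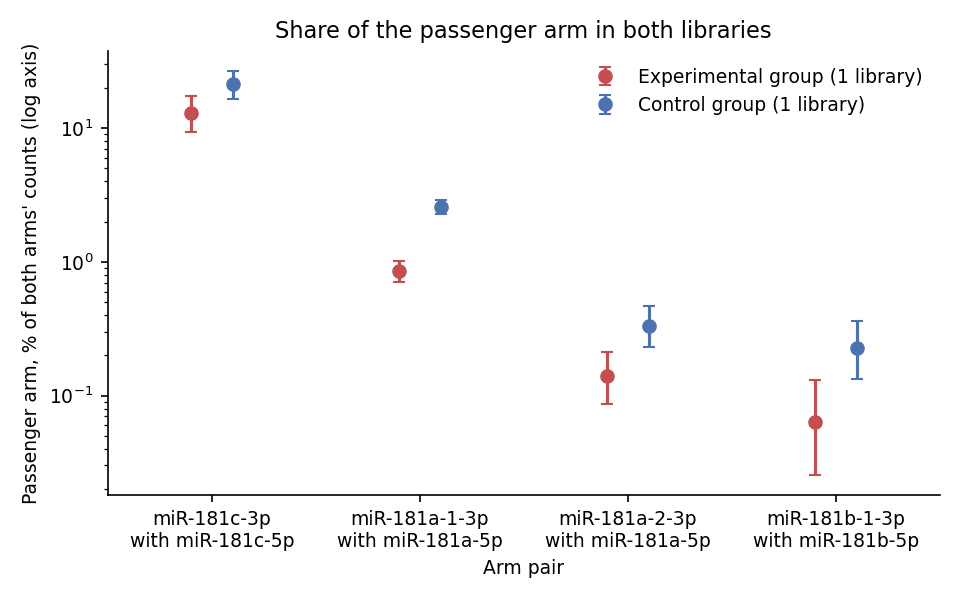
Counts of each passenger arm as a percentage of the counts on it and its 5p arm (log axis), in the experimental (red) and control (blue) library, with exact Clopper-Pearson intervals as bars. Each share is lower in the experimental library, from 21.3% to 13.0% for miR-181c-3p and from 2.58% to 0.849% for miR-181a-1-3p.

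The same comparison was made for the 94 pairs formed by the only counted 5p arm and the only counted 3p arm of a RefSeq gene. The p-values were adjusted over these 94. Arms of the same name that were not matched in this way are left out. The 5p arm gained on the 3p arm in 64 of the 94, with a median of 0.35 on the log2 scale, so that these pairs leaned in this direction. Of the pairs left out, the 3p arm had the higher ratio in miR-30b, miR-30e, miR-99a, miR-124, miR-136, miR-150, miR-151, miR-301a, miR-328a, miR-423 and miR-455. The 5p arm had it in miR-127 and miR-674. The lean and the shares below hold for the 94 only. For the 90 pairs outside the family the median was 0.32, and for the 4 miR-181 pairs it was 1.45. In 47 of the 90 the 5p arm had more counts than the 3p arm, as in miR-181, and their median was 0.36. Taken as the more abundant minus the less abundant arm, the 94 had a median of 0.12, with 53 above 0 and 41 below. A gain of the 5p arm beyond 1 was found in 3 of the 4 miR-181 pairs, against 18.1% of the 94. All 4 passed Fisher's exact test in this direction, against 29.8%. In all 4 the 5p arm was higher and the 3p arm lower than in the control group, which held for 38.3% of the 94 with the clean reads and for 36.2% to 37.2% with the other scalings. In the order of the 94 pairs miR-181b had 5 pairs above it, miR-181a-1 had 6, miR-181a-2 had 10 and miR-181c had 23.

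As the passengers are specific to a hairpin, they were used to compare the clusters that give miR-181a-5p. MiR-181a-1-3p from chromosome 13 made up 86.0% of the counts on both miR-181a passengers after SE (interval 79.4 to 91.1) and 88.8% in controls (interval 84.6 to 92.1). Their log2 ratios differed by -0.36 (interval -1.26 to 0.56), so that no shift between the clusters was detectable at this depth. The ratios of miR-181a-1-3p and miR-181c-3p, which share a seed, differed by -0.52 (interval -1.22 to 0.19).

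The miR-30 and miR-29 families, which also have several paralogues and both arms counted, were set beside miR-181. The 5p arms of miR-30, its guides for the most part, summed to a log2 ratio of 0.34 (interval 0.30 to 0.37). Of these, 4 of 5 passed the test as higher. Of the 285 miRNAs, 38.6% passed as higher and 21.4% as lower, the shares to set beside each count of this paragraph. The 5p arms of miR-181 exceeded them by 0.54 (interval 0.49 to 0.59). The 3p arms of miR-30 together stood at 0.29 on this scale (interval 0.17 to 0.42). Taken singly, 3 of them passed as higher and 1 as lower. The passenger arms of miR-181 lay 0.92 below their sum (interval of the difference -1.21 to -0.64). Within miR-30, miR-30c moved as miR-181 did, with miR-30c-5p at 0.59, miR-30c-1-3p at -0.57 and miR-30c-2-3p at -0.16. The last did not pass the test. MiR-30c-5p gained 1.17 on miR-30c-1-3p and 0.75 on miR-30c-2-3p, beside 0.86 for the miR-181c pair. In miR-30a, miR-30b and miR-30e the 3p arm had the higher ratio. In miR-29 the 3p arm is the guide. Its 3 guides summed to a log2 ratio of -0.22 (interval -0.23 to -0.21), of which 1 passed as higher and 2 as lower. Its 5p arms, the passengers, had 153 counts in each library and stood at 0.27 on this scale (interval -0.062 to 0.60), above its guides, whereas the passengers of miR-181 stood below theirs. The 5p arms of miR-181 exceeded the 3p arms of miR-29, its guides, by 1.10 (interval 1.07 to 1.12).

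Other miRNAs known to repress mRNAs of the BCL2 family did not share a direction. Of the 9 listed (the guides of miR-15a, miR-15b, miR-16, miR-195, miR-497, miR-34a and miR-29), 8 were analysed. They had a median log2 ratio of 0.011, beside 0.10 for the 285 miRNAs and 0.86 for the miR-181 guides. Of these, 2 passed as higher and 3 as lower, and 0 lay beyond 1 in either direction. Of the 285 miRNAs, 38.6% passed as higher and 21.4% as lower, and 10.2% lay above 1 and 2.11% below -1. A list of 8 with mixed directions is therefore not set apart from the 285. The ends of the list are named after their values were seen. The highest was miR-16-5p, with 950 and 747 counts and a log2 ratio of 0.62, and the lowest was miR-497-5p, with 269 and 467 counts and a log2 ratio of -0.52.

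Markers of other cells moved in both directions beside the miR-181 guides, as did the 285 miRNAs. Of the 285, 38.6% passed as higher and 21.4% as lower. Of the neuronal list 3 of the 4 analysed passed as higher and 1 as lower, between miR-124-3p at 1.09 and miR-128-3p at -0.45 on the log2 scale. The oligodendrocyte list, 4 of 4 analysed, summed to 1569 CPM after SE and 1591 CPM in controls, most of it miR-219-2-3p. Of this list 2 passed as higher and 1 as lower, between miR-219-1-3p at 1.17 (41 and 22 counts) and miR-219-5p at -0.48 (1609 and 2712 counts). Microglia and leukocyte markers, 2 of 5 analysed, summed to 39.5 and 40.6 CPM, and the lymphocyte miRNA miR-150-5p stood at 6.63 and 9.27 CPM. The erythrocyte markers, 2 of 3 analysed, summed to 28.7 and 13.0 CPM, of which miR-451-5p rose by 1.24 on the log2 scale (196 and 100 counts; Fisher's exact test, adjusted p = 3.03e-12). The other erythrocyte marker, miR-144-3p, had 12 and 14 counts and stood at 0.048 on this scale (interval -1.19 to 1.27). Liver miR-122-5p had 16.8 and 10.6 CPM and passed as higher, with a log2 ratio of 0.66 (interval 0.26 to 1.07). The muscle miRNAs, 3 of 5 analysed, summed to 246 and 266 CPM. Of these, miR-1-3p passed as lower, at -0.23 on this scale. MiR-206-3p stood at 0.088 and miR-133a-3p, with 8 and 21 counts, at -1.12, and neither passed. The endothelial markers and the leukocyte markers miR-223-3p, miR-142-3p and miR-155-5p were not analysed here. Of the analysed markers none was at 0 in either library, and their part in the changes of miR-181 was not tested.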

How the data were processed

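Small RNA of 2 pooled libraries, 1 per group, was analysed. The values deposited are unscaled read counts, whole numbers for each miRNA, although the file header calls them normalized. The labels describe a cRNA preparation, whereas the study describes adaptor ligation and sequencing, which was followed here. The authors had removed reads of low quality, short reads and sequences read once, which bears on the lowest counts. The submitters' processing notes name the build rn5, and the aligner and miRBase release are not given in the sources used here. The p-values that the table also holds are the authors' own comparison and were not used. Counts were divided by the clean reads that the study gives for each library, and counts under 3 were set to 3 before a ratio. Each miRNA was compared by a two-sided Fisher's exact test of its count against the remaining clean reads. The 5p and 3p arms of a RefSeq gene, where only 1 of each was counted, were compared by a Fisher's exact test on their counts. Benjamini-Hochberg adjustment ran over all 390 miRNAs and over the 94 arm pairs matched in this way. Intervals are Clopper-Pearson for ratios and shares and conditional exact for odds ratios. Sequences and neighbouring genes come from RefSeq (GRCr8), in which 297 of the 328 known miRNAs and all 8 members matched by name. Lists with several members were described by counts and medians.

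The rule for named miRNAs took every member, neighbours within 10 kb, the miRNAs of the same seed, 2 comparison families, the markers, and a BCL2 list given by count and median. The members and lists were chosen with earlier results of these data known. The alternatives were other scalings, a pseudocount of 1, other count minimums, a log2 ratio beyond 2, and other sums of arms. The procedures were tested on simulated data with known changes. Scaling factors came from edgeR 4.0.16 (TMM) and DESeq2 1.42.0 (size factors) in R 4.3.3, and tests from scipy 1.17.1 in Python 3.11.15, with pandas 2.3.3, numpy 2.4.6 and matplotlib 3.10.9.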

Additional observations from a re-analysis of the deposited data

How the results depend on the processing

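No paired analysis was possible because a single pooled library stands for each group, and for the same reason no replicate could be left out. The scalings shifted every log2 ratio alike, by -0.031 with the sum of the table, -0.090 with DESeq2's size factors, -0.18 with TMM and -0.27 with unscaled counts. In this order the log2 ratio of the whole family was 0.83, 0.77, 0.68 and 0.59, and the median of the 5p arms was 0.83, 0.77, 0.68 and 0.59. With the passenger arms only, the family's log2 ratio turned to -0.63. The median of the passenger arms was -0.83 with unscaled counts. With both arms in the denominator the control shares were 49.8% for miR-181a-5p and 37.8% for miR-181b-5p. The members with a log2 ratio beyond 1 were 0 as higher under each of the 4 other scalings and at a log2 ratio beyond 2. As lower, 1 passed with unscaled counts (miR-181a-1-3p), and 1 with a minimum of 10 counts or with no minimum (miR-181b-1-3p, at -1.01), against 0. The arm differences kept their direction with a pseudocount of 1, for which the test was not repeated. With summed passengers those of miR-181a kept their direction and their side of the threshold. Of the single members' ratios, 30 stayed within their interval under an alternative and 10 moved beyond it, and none changed sign. As the other scalings lowered every ratio, only a guide could have changed sign by scaling. Depth limits miR-181a-2-3p, miR-181b-1-3p and miR-181c-3p, with at most 55 counts in a library.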

Other observations

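The miRNAs named here lie outside the rule and were picked with their values in view. The next miRNA genes to Mir181c on chromosome 19 of the GRCr8 annotation are Mir23a, Mir27a and Mir24-2, at 28.4 to 28.7 kb from it. MiR-23a-3p had 1293 counts after SE and 1864 in controls and stood at -0.26 on the log2 scale (95% interval -0.36 to -0.15). MiR-27a-3p stood at 0.51 (259 and 220 counts, interval 0.24 to 0.77). MiR-24-3p, which other hairpins may also give, stood at 0.17 (3180 and 3400 counts, interval 0.10 to 0.24). MiR-24-2-5p stood at -0.051 (12 and 15 counts, interval -1.28 to 1.14). The interval of miR-23a-3p lay below those of miR-181c-5p and miR-181d-5p, and that of miR-27a-3p overlapped the former.

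Among the 5 arm pairs in which the 5p arm gained more than in any miR-181 pair were miR-34c, with 12579 and 7462 counts on the 5p arm and 6 and 15 on the 3p arm (gain of 2.08 on the log2 scale, interval 0.63 to 3.73), and miR-99b, with 2528 and 2517 counts on the 5p arm and 49 and 177 on the 3p arm (gain of 1.86, interval 1.39 to 2.35).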
